A study of Mus musculus with 8 samples.

Results

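Tppp3, Rom1, Spon2, Scpep1, 1500009L16Rik, Rasa3 and Plec are 7 of the 47729 genes counted in RNA from γδ T cells, which had been sorted out of visceral fat of C57BL/6 mice. The 4 KD samples came from mice on a ketogenic diet (KD), which is low in carbohydrate and high in fat, and the 4 chow samples from mice on the control diet, and feeding lasted 1 week in both groups. All 8 samples share strain, tissue and sorted cell type, and the labels do not give the age of the animals or how many mice went into a sample. The p-values below therefore reflect spread among these 8 libraries alone, part of which may be technical. The genes were chosen from these very values, because each was well above noise and higher in every KD sample than in every chow sample, so their own differences between the diets are described without a test. Of the 13397 genes with enough counts to be tested, 442 (3.30%) were higher in every KD sample and 368 (2.75%) lower, and nothing is read from the 7 being among them. The separation of all 7 holds for CPM, the count of a gene after scaling for library size, and for FPKM, which also divides by transcript length. It holds for 5 of the 7 on unscaled counts, where the ranges of Rasa3 and Plec overlapped.

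γδ T cells are lymphocytes with a receptor of γ and δ chains that settle in tissues early in life, and in mouse fat many of them are poised to make IL-17 and take part in the control of inflammation and heat production. The 7 genes are not members of one pathway: they encode a tubulin-binding protein (Tppp3), a cytoskeletal linker (Plec), a secreted matrix protein (Spon2), a tetraspanin (Rom1), a lysosomal peptidase (Scpep1), a brake on RAS and RAP1 signalling (Rasa3) and a small protein with no established function (1500009L16Rik). They were put together as genes without a known role in T cells. That description does not hold for Rasa3, which has been studied in mouse T cells, and Spon2 is known from innate immunity and as a ligand of leukocyte integrins. Nor were all 7 strong risers: the fitted fold was above 2 for 4 of them (Tppp3, Spon2, Rom1 and 1500009L16Rik) and below 2 for 3 (Scpep1, Rasa3 and Plec).

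Libraries held 19796126 to 26572328 counts in KD and 23940838 to 31926441 in chow. The summed level of 10 γδ T cell markers (Trdc, CD3 chains, Il17a and others) was 9234 to 10296 CPM in KD and 9122 to 9496 CPM in chow, and 0 of the 10 passed the test (edgeR's quasi-likelihood test, adjusted p under 0.05). Trdc gave the largest part of this sum, which says little about single markers. In replicates 1 to 4, Il17a had 1696, 1883, 2531 and 3035 counts in KD and 1602, 1196, 1682 and 2001 in chow. Relative to library totals, Il17a was higher in every KD sample than in every chow sample. The adipocyte markers Adipoq, Plin1, Cidec, Cfd and Plin4 together stayed at or below 1.39 CPM in KD and 2.26 CPM in chow, and Lep had 0 counts in all 8 libraries. In bulk samples fewer cells of a type and less RNA per cell cannot be told apart.

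Start regions of 4 of the 7 genes were matched in RefSeq (GRCm38.p6), each 300 bases long, from 250 bases before to 50 bases after the start of the gene. They are shown 5′ to 3′ in the direction of the gene. That all 4 genes were higher in KD follows from how they were chosen, and shared control was not tested. Rom1 is read from chr19:8929307-8929606 (minus strand), Scpep1 from chr11:88955393-88955692 (minus), 1500009L16Rik from chr10:83722615-83722914 (plus) and Rasa3 from chr8:13677538-13677837 (minus). Capitals mark the letters GGGCGG or their reverse complement, the GC box bound by SP and KLF family factors.
Rom1: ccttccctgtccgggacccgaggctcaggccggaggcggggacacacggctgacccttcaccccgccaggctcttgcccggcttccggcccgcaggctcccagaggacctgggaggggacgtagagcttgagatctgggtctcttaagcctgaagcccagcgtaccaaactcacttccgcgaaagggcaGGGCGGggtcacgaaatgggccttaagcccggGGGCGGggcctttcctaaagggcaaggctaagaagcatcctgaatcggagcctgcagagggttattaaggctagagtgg
Scpep1: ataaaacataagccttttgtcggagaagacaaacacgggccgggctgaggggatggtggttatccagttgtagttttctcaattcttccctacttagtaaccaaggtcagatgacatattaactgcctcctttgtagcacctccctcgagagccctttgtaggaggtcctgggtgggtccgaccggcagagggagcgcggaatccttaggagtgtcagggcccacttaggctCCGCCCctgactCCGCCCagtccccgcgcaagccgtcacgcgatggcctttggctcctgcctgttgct
1500009L16Rik: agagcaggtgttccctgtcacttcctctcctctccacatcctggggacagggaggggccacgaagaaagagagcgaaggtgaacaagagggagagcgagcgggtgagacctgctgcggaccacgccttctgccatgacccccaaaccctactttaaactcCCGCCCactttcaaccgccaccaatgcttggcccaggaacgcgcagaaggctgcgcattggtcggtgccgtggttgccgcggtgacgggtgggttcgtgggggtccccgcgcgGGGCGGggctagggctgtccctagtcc
Rasa3: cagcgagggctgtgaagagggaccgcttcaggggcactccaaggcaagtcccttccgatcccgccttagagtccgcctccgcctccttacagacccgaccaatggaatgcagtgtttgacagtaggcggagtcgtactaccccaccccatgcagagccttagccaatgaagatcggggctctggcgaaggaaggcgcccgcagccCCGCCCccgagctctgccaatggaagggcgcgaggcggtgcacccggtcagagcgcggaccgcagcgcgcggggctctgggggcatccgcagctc
The GC box was present in all 4 sequences (2 matches in Rom1, 2 in Scpep1, 2 in 1500009L16Rik and 1 in Rasa3) and in 35.7% of the 32851 RefSeq start regions. Searched on both strands, 6 other motifs had no match in these windows. They were the ETS motif CCGGAAGT (in 3.89% of all start regions), the RUNX motif TGTGGT (16.8%), the AP-1 motif TGANTCA (7.81%), the E-box CACGTG (7.15%), the CRE TGACGTCA (1.79%) and the DR1 element, 2 copies of AGGTCA 1 base apart (0.0396%). The 4 regions held 56.3% to 66.7% G and C and 15 to 26 CpG pairs, against medians of 52.7% and 7 over all start regions. A match is a run of letters and not a measured binding site. The Rom1 window also holds the annotated start of the gene Eml3 (chr19:8929552, plus strand), so its letters do not belong to Rom1 alone.

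The genes of the cytoskeleton are Tppp3 and Plec. Tppp3 (ENSMUSG00000014846, GRCm38 chr8:105467493-105471526, minus strand) encodes a member of the TPPP family, which binds tubulin and bundles microtubules. It stood at 207, 138, 195 and 137 CPM in KD replicates 1 to 4, against 33.2, 11.4, 26.1 and 17.4 CPM in chow replicates 1 to 4. The lowest KD sample was 4.13 times the highest chow sample, the largest such ratio of the 7 genes. The level averaged 169 ± 37.0 CPM in KD and 22.02 ± 9.58 CPM in chow (SD, n = 4 each), a log2 fold change of 2.94 (SE 0.31). In relative terms chow samples varied more, with a coefficient of variation of 43.5% against 21.9% in KD.

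Plec (ENSMUSG00000022565, chr15:76170974-76232574, minus strand) encodes plectin, a giant plakin that ties intermediate filaments to actin, microtubules and adhesion sites. It stood at 327, 261, 233 and 215 CPM in KD replicates 1 to 4, against 178, 185, 183 and 149 CPM in chow replicates 1 to 4. Plec had the smallest such ratio of the 7, with the lowest KD sample at 1.16 times the highest chow sample. It averaged 259 ± 49.1 CPM in KD and 174 ± 16.7 CPM in chow (SD, n = 4 each), a log2 fold change of 0.57 (SE 0.13). Just outside the rule lay Uqcrc2, whose lowest KD sample (130.9 CPM) and highest chow sample (131 CPM) stood at a ratio of 0.999.

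Spon2 and Rom1 encode proteins of the cell's surroundings and membranes. Spon2 (ENSMUSG00000037379, chr5:33198184-33218455, minus strand) encodes mindin, a secreted matrix protein that binds leukocyte integrins and microbial surfaces in mice. Its level was 40.2, 42.6, 52.4 and 39.5 CPM in KD replicates 1 to 4, against 11.0, 2.32, 7.45 and 5.07 CPM in chow replicates 1 to 4. The chow samples span a wide range for a low gene (62 to 263 counts), while the KD samples lie close together (coefficient of variation 57.0% in chow and 13.6% in KD). The log2 fold change was 2.76 (SE 0.40).

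Rom1 (ENSMUSG00000071648, chr19:8927391-8929356, minus strand) encodes a tetraspanin known from the disc rims of retinal rod outer segments, where it pairs with peripherin-2. It measured 51.4, 43.5, 55.5 and 37.5 CPM in KD replicates 1 to 4, against 10.8, 12.3, 10.2 and 12.8 CPM in chow replicates 1 to 4. Its chow samples varied by a coefficient of variation of 10.7%, and its log2 fold change was 2.03 (SE 0.18). Prph2, the gene of its retinal partner, had 0 counts in all 8 libraries, where a floor of 3 counts corresponds to 0.113 to 0.152 CPM in KD libraries and 0.0940 to 0.125 CPM in chow libraries.

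Scpep1 and Rasa3 were abundant in both diets, and 1500009L16Rik was not. Scpep1 (ENSMUSG00000000278, chr11:88924020-88955465, minus strand) encodes a serine carboxypeptidase of the lysosome related to cathepsin A. It stood at 462, 450.2, 486 and 475 CPM in KD replicates 1 to 4, against 314, 264, 268 and 269 CPM in chow replicates 1 to 4. Replicate 1 stood above the other chow samples, and the KD samples varied less than those of any other of the 7 genes (coefficient of variation 3.33%). The log2 fold change was 0.75 (SE 0.08). Its exons share 96 bases with the antisense gene Scpep1os, and the sources used here do not give the strand setting of the counting. Scpep1os itself averaged 0.735 ± 0.326 CPM in KD and 0.423 ± 0.176 CPM in chow (SD, n = 4 each).

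Rasa3 (ENSMUSG00000031453, chr8:13566948-13677603, minus strand) encodes a GTPase-activating protein that turns off RAS and RAP1, and RAP1 is a switch of integrin adhesion in lymphocytes and platelets. It measured 396, 429, 389.9 and 349 CPM in KD replicates 1 to 4, against 244, 244, 247 and 261 CPM in chow replicates 1 to 4. The chow samples were nearly level (coefficient of variation 3.33%), and the KD samples spread more (8.33%). The log2 fold change was 0.65 (SE 0.08). The remaining gene, 1500009L16Rik (ENSMUSG00000087651, chr10:83722865-83762762, plus strand), was at 54.8, 41.1, 56.6 and 73.2 CPM in KD replicates 1 to 4, against 17.9, 20.3, 14.8 and 15.8 CPM in chow replicates 1 to 4. Replicate 4 was its highest KD sample, whereas 5 of the 7 genes were lowest in that sample. The log2 fold change of 1500009L16Rik was 1.72 (SE 0.20).

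**Figure D1:**
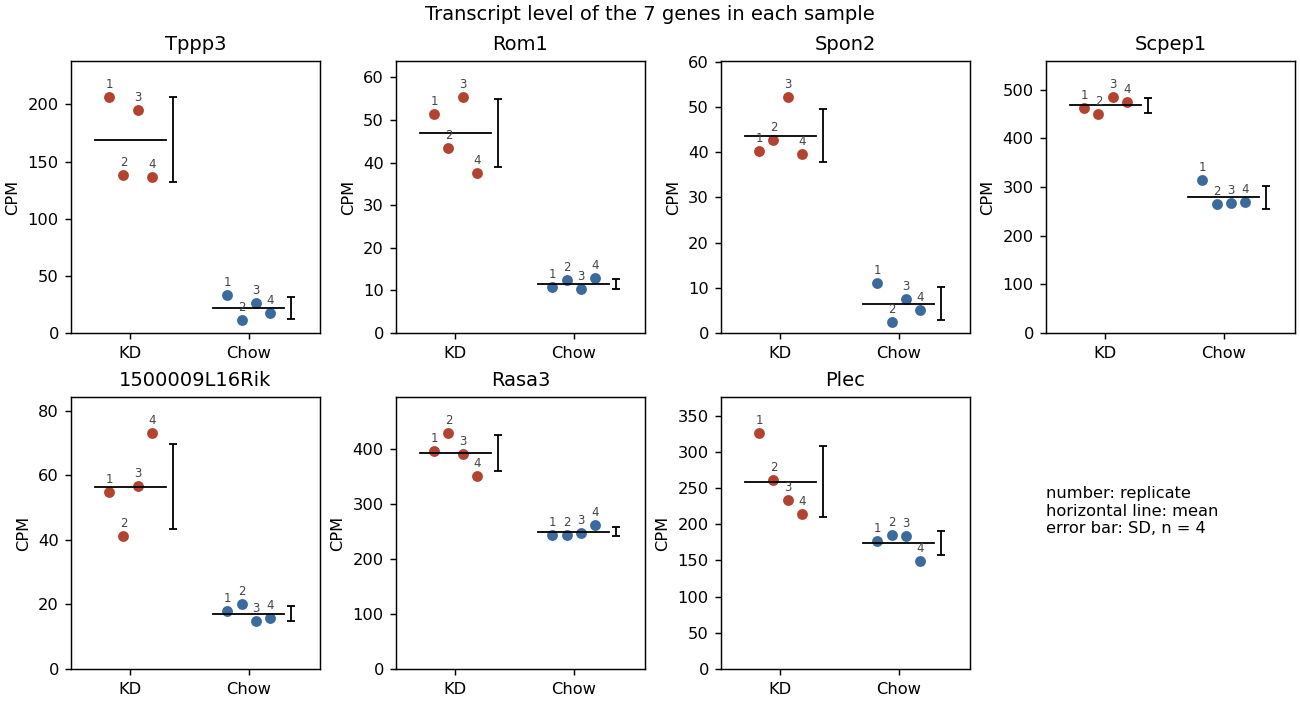
CPM of each gene (vertical axis, from 0) in single samples of KD and chow, labelled by replicate number, with the mean as a line and the SD as a bar (n = 4 each). As a ratio, the lowest KD sample over the highest chow sample is largest for Tppp3 (137 and 33.2 CPM, 4.13 times) and smallest for Plec (215 and 185 CPM, 1.16 times).

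The 7 genes did not share one order of samples within a diet. In chow, Tppp3 and Spon2 both ran from replicate 1 (highest) through replicates 3 and 4 to replicate 2 (lowest). Rom1 and Rasa3 were both highest in chow replicate 4, and Plec was lowest in that sample. In KD, Tppp3 and Plec were highest in replicate 1, Rom1, Spon2 and Scpep1 in replicate 3, Rasa3 in replicate 2 and 1500009L16Rik in replicate 4. These orders rest on 4 samples a diet and are given as a description.

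Per kilobase, Scpep1 was the most abundant of the 7 in both diets. In KD the order by mean FPKM was Scpep1 (232 ± 7.35 FPKM), Tppp3 (188 ± 42.3 FPKM), Rasa3 (103 ± 7.56 FPKM), 1500009L16Rik (50.5 ± 11.6 FPKM), Plec (45.5 ± 7.38 FPKM), Rom1 (32.4 ± 5.65 FPKM) and Spon2 (26.0 ± 2.39 FPKM) (SD, n = 4 each). In chow it was Scpep1 (137 ± 11.8 FPKM), Rasa3 (63.4 ± 3.19 FPKM), Tppp3 (24.0 ± 10.5 FPKM), Plec (23.9 ± 2.28 FPKM), 1500009L16Rik (15.3 ± 2.42 FPKM), Rom1 (7.92 ± 0.850 FPKM) and Spon2 (3.67 ± 1.98 FPKM) (SD, n = 4 each). Tppp3 thus stood above Rasa3 in KD and below it in chow, with ranges that do not overlap in either diet. Among neighbours in these orders, the ranges of Scpep1 and Tppp3 overlapped in KD, as did each step from 1500009L16Rik through Plec and Rom1 to Spon2, and in chow the ranges of Tppp3 and Plec overlapped.

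**Figure D2:**
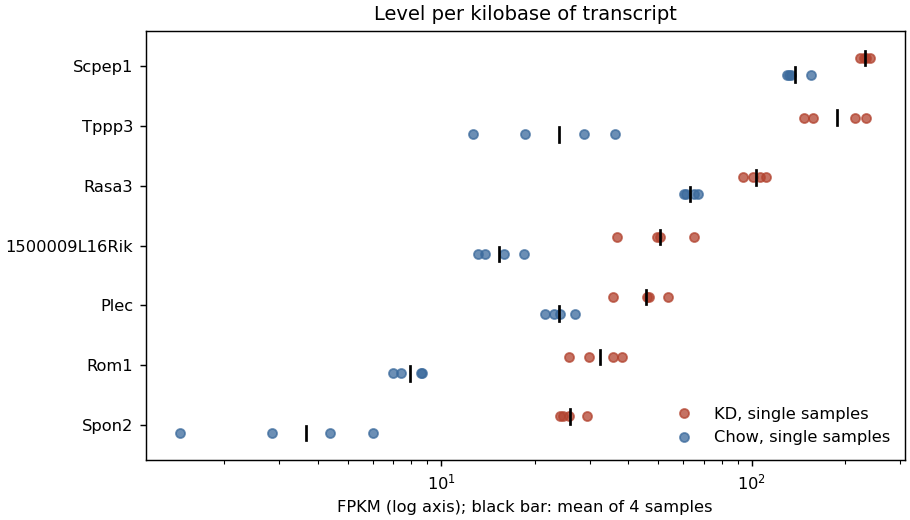
FPKM of the 7 genes on a log axis, with KD samples above chow samples in each row and a black bar at the mean of 4 samples. Tppp3 lies above Rasa3 in KD (means 188 and 103 FPKM) and below it in chow (24.0 and 63.4 FPKM).

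The mean transcript length was a measure that did not choose the genes. Estimated counts divided by FPKM give the length that the deposited estimates assign to a gene in a sample, which depends on the mix of its transcripts. Plec was assigned 6136, 5627, 5025 and 5991 bases in KD replicates 1 to 4, against 7409, 7038, 7889.7 and 6688 bases in chow replicates 1 to 4. Every KD value lay below every chow value. The means were 5695 ± 495 bases in KD and 7256 ± 515 bases in chow (SD, n = 4 each), a ratio of 0.785. The two-sided exact permutation test gave p = 0.0286, the smallest that 4 against 4 samples allow. Over the 4 genes tested its adjusted p was 0.114, so the difference did not pass. A gene alone at this floor could not pass over 4 genes, whatever its difference, so no conclusion is drawn from that outcome. Among 5310 genes with FPKM of at least 5 in every sample and a length that varied, 74 (1.39%) were shorter and 54 (1.02%) longer in every KD sample, and 16, Plec included, had a ratio as low as that of Plec.

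GENCODE M21 lists 22 transcripts of Plec, from 254 to 15455 bases, so that the assigned length can move widely, and 205 exonic bases are shared with Parp10 on the same strand. On FPKM, which divides by this length, Plec was 1.90 times as high in KD as in chow by the ratio of means, and on CPM it was 1.49 times as high. The lengths of Tppp3 (901 ± 25.4 bases in KD and 915 ± 11.7 bases in chow), Spon2 (1676 ± 72.5 and 1726 ± 78.6 bases) and Rasa3 (3800 ± 69.3 and 3914 ± 140 bases) overlapped between the diets (SD, n = 4 each; exact permutation test, adjusted p = 0.4 for each). For Rom1, Scpep1 and 1500009L16Rik the assigned length was constant over the 8 samples, and no test was made.

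**Figure D3:**
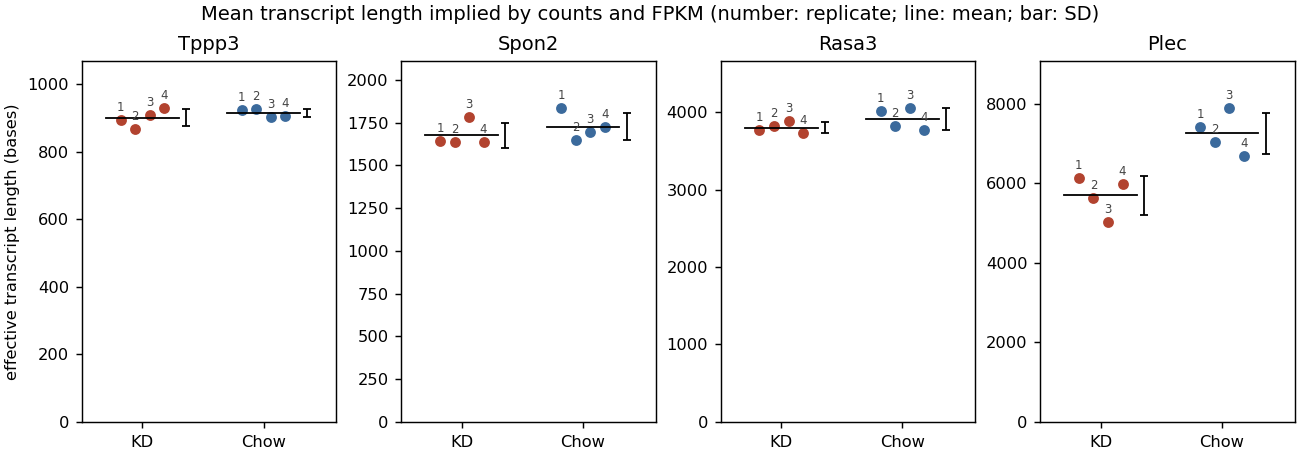
Mean transcript length in bases (vertical axis, from 0) implied by counts and FPKM in KD and chow samples, for the 4 genes whose length varied; the line is the mean and the bar the SD (n = 4 each). Plec samples lie at 5025 to 6136 bases in KD and at 6688 to 7889.7 bases in chow, and the other 3 genes overlap.

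Marker RNA of stromal and mesothelial cells, the connective tissue and lining cells of fat, was higher in most KD libraries. Of 16 markers 11 were tested, all 11 with a positive fold change (median log2 fold change 3.10, against 0.01 over all tested genes), and 2 rose (Krt19 and Postn). The summed level of the 16 was 33.6, 538, 305 and 356 CPM in KD replicates 1 to 4, against 23.5, 28.2, 42.3 and 200.003 CPM in chow replicates 1 to 4. In KD replicate 1, Lum, Pi16, Msln and Wt1 had 0 counts and the other 12 markers had some, among them the collagen gene Col3a1 (157 counts) and the fibroblast proteoglycan gene Dcn (137 counts). In chow replicates 1 to 4 Col3a1 had 7, 2, 221 and 1526 counts, and Dcn had 0, 46, 283 and 2558. Lrrn4 was detected in every library, with 238 to 865 counts in KD and 503 to 720 in chow. The summed level in KD replicate 1 lay above chow replicates 1 and 2 and below chow replicates 3 and 4. Lrrn4 had the most counts of the 16 markers in KD replicate 1 and in chow replicates 1 to 3, and so weighed most in those sums. The mean log2 CPM of the 11 tested markers ordered the samples otherwise. By that mean KD replicate 1 (0.445) lay above chow replicates 1 to 3 (-2.40, -1.23 and -0.730) and below chow replicate 4 (1.59). The part of this RNA in the levels of the 7 genes was not tested, and the order of KD and chow samples was fixed by how the genes were chosen. With the mean of the stromal markers as a covariate the log2 fold changes were 3.53 for Tppp3, 3.13 for Spon2, 2.05 for Rom1, 1.86 for 1500009L16Rik, 0.93 for Plec, 0.83 for Scpep1 and 0.60 for Rasa3. The value of Plec was thus 0.93 in that fit and 0.57 without the covariate.

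**Figure D4:**
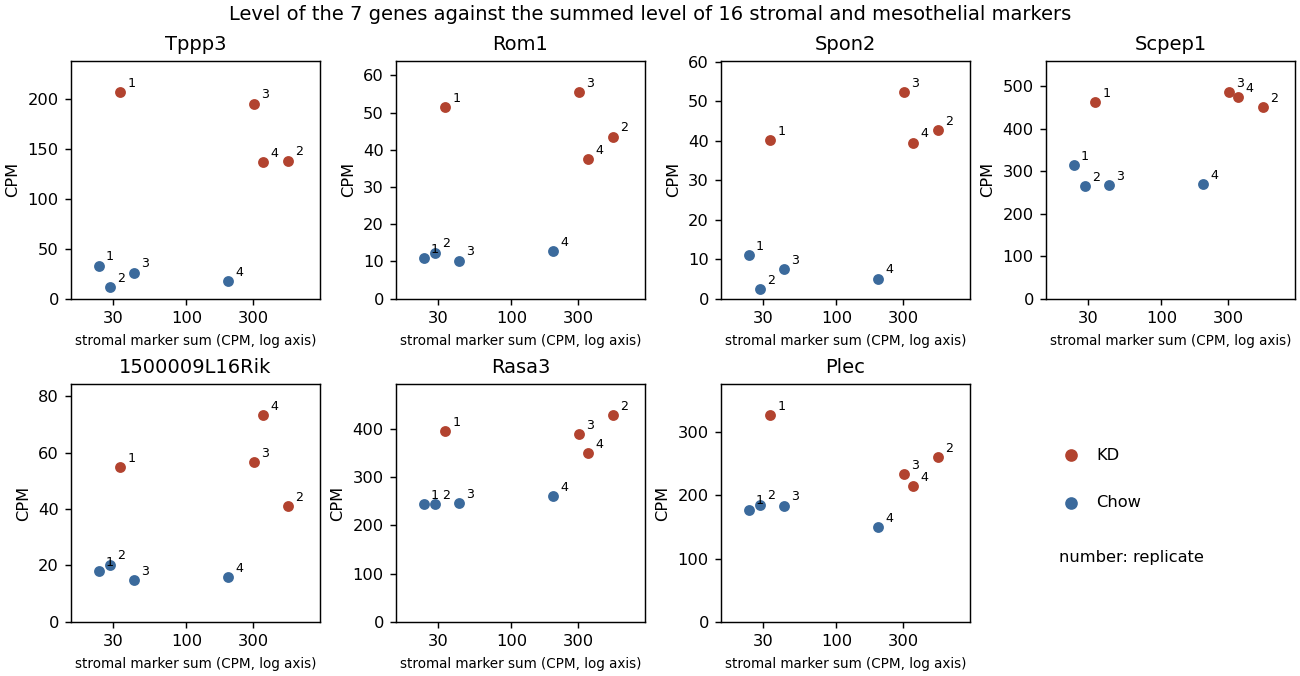
CPM of each gene (vertical axis, from 0) against the summed CPM of 16 stromal and mesothelial markers (log axis), with KD and chow samples in 2 colours and numbered by replicate. The marker sum of KD replicate 1 is 33.6 CPM, within the chow range of 23.5 to 200.003 CPM, and the sums of the other KD samples are 305 to 538 CPM; that KD points lie above chow points follows from the choice of genes.

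Endothelial markers (6 of 9 tested, all 6 with a positive fold change, 0 called, median 2.17) summed to 51.9 to 374 CPM in KD and 47.4 to 114 CPM in chow. Pecam1 was present throughout, with 945, 1404, 2399 and 2324 counts in KD replicates 1 to 4 and 1741, 1460, 1631 and 1195 in chow. Cldn5 was not, with 0, 2, 572 and 432 counts in KD replicates 1 to 4 and 269, 0, 0 and 0 in chow. Markers of pericytes and smooth muscle (3 of 6 tested, 3 positive, 0 called) summed to 3.42 to 229 CPM in KD and 0.861 to 153 CPM in chow. In both lists KD replicates 3 and 4 were the highest KD samples, and chow replicate 1 was the highest chow sample. The part of these cells in the levels of the 7 genes was not tested. Platelet, mast cell and neutrophil markers, of interest because platelets express Rasa3, summed to at most 3.38 CPM in KD and 2.53 CPM in chow. Macrophage markers, of interest because macrophages are rich in lysosomal peptidases, summed to 1487 to 1724 CPM in KD and 1474 to 1777 CPM in chow, most of it Ccr2, which γδ T cells themselves carry, and Adgre1 had no more than 8 counts in any library. In replicates 1 to 4, Lyz2 had 39, 488, 202 and 384 counts in KD and 0, 156, 79 and 2491 in chow. Cd14 had 0, 67, 42 and 240 counts in KD and 62, 31, 107 and 63 in chow. The part of this RNA in the levels of the 7 genes was not tested.

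Genes related to the 7 by family or pathway mostly did not pass the test. Of 154 such genes 123 were tested, 4 rose in KD (Itgb1, Rasgrp2, Krt19 and Krt7) and 0 fell, where 0.328% of all tested genes rose, 0.179% fell and 0.508% did either. In every KD sample 5 of the 123 were above every chow sample (3.30% of all tested genes) and 3 were below (2.75%). Of the 123, 20 had an unadjusted p under 0.05, against 8.64% of all tested genes, and DESeq2 called 5 higher and 0 lower. Their median log2 fold change was 0.05, and that of all tested genes was 0.01. Fits without KD replicates 1 to 4 in turn called 2, 1, 0 and 1 of them, and fits without chow replicates 1 to 4 called 2, 2, 0 and 0. With the stromal covariate 1 was called. The lists were drawn up with earlier results of these data known, so nothing is read from their counts beside the shares over all genes.

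The list around Spon2 holds spondins, thrombospondins and the integrin chains that bind mindin. Of its 14 genes 8 were tested, and 1 rose. Itgb1, the β1 integrin chain, stood at 1020, 1084, 1108 and 1341 CPM in KD replicates 1 to 4, against 741, 572, 699 and 589 CPM in chow replicates 1 to 4. The groups did not overlap, and the mean was 1138 ± 140 CPM in KD and 650.2 ± 82.5 CPM in chow (SD, n = 4 each; log2 fold change 0.81, SE 0.11, edgeR adjusted p = 0.0169). This call was lost without KD replicate 2 or 3 or chow replicate 3 or 4 and with the stromal covariate (adjusted p = 0.265), at fold changes of 0.72 to 0.88 over all alternatives. Its α partners Itga5 (log2 fold change 0.33, adjusted p = 0.651) and Itga4 (0.37, adjusted p = 0.662) did not pass. Spon1, another spondin, had 69 counts in KD and 68 in chow over all libraries and missed the count filter.

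Around Rasa3, 35 of 41 regulators of RAS and RAP1 were tested, and 1 rose. Rasgrp2, which encodes an exchange factor that turns on RAP1, stood at 85.8, 45.6, 62.1 and 67.5 CPM in KD replicates 1 to 4, against 31.98, 18.7, 24.7 and 19.2 CPM in chow replicates 1 to 4. The groups did not overlap (means 65.2 ± 16.6 CPM in KD and 23.7 ± 6.17 CPM in chow, SD, n = 4 each; log2 fold change 1.46, SE 0.23, edgeR adjusted p = 0.0282). Without KD replicate 1, 3 or 4 or chow replicate 2, 3 or 4 this call was lost, and it held with the stromal covariate (adjusted p = 0.0491). Rasa4, of the same GAP family, differed by 0.28 on the log2 scale (edgeR adjusted p = 0.56), and Rras2, a RAS-like GTPase, by -0.49 (adjusted p = 0.467). The list had a median of -0.01, with 16 of 35 values positive and 5 genes with an unadjusted p under 0.05.

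The list around Plec holds other plakins, intermediate filament proteins and their anchors, and 2 of 16 tested genes rose. Both are keratins of epithelium and mesothelium, and Krt19 is also one of the stromal and mesothelial markers above. Krt19 was at 1.33, 9.94, 7.48 and 4.86 CPM in KD replicates 1 to 4 (28, 264, 148 and 105 counts), against 3 counts over the 4 chow libraries (edgeR adjusted p = 0.0247). Krt7 was at 1.29, 2.597, 5.21 and 1.62 CPM in KD replicates 1 to 4, against 0 counts in every chow library (edgeR adjusted p = 0.0437). Krt19 was called without KD replicate 1 and without chow replicate 2 and lost without any other single sample. Krt7 was lost without any 1 of the 8 samples, and neither was called with the stromal covariate (adjusted p = 0.368 for Krt19 and 0.318 for Krt7). Krt19 is itself part of that covariate, so the loss of its call there is partly built in. Itgb4, the integrin chain that anchors plectin in hemidesmosomes, was at 52.2, 36.9, 44.9 and 29.4 CPM in KD replicates 1 to 4, against 13.2, 24.6, 9.38 and 21.96 CPM in chow replicates 1 to 4. It did not pass in edgeR (log2 fold change 1.24, SE 0.31, adjusted p = 0.172), although the groups did not overlap. Lmnb2, a nuclear lamin, had a value of -0.75 (adjusted p = 0.491).

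In the remaining lists 0 genes were called by edgeR. Of 27 tested TPPP family and microtubule genes, 11 had a positive fold change and 3 an unadjusted p under 0.05, with Tubb2a at 42.6 ± 4.50 CPM in KD and 61.0 ± 8.31 CPM in chow (SD, n = 4 each; adjusted p = 0.227) and Tuba8 at 11.3 ± 3.49 and 20.7 ± 3.12 CPM (adjusted p = 0.281). For Tubb2a and Tuba8 every KD sample lay below every chow sample. Tubulin genes are near-identical copies whose shared reads were divided by estimation, so their levels are uncertain. Tppp2 had 0 counts in all 8 libraries. Of 22 tested tetraspanins, 13 had a positive value and 3 an unadjusted p under 0.05. Upk1b, a tetraspanin of urothelium and mesothelium, was at 0.858, 9.37, 10.3 and 8.75 CPM in KD replicates 1 to 4, against 1.01 CPM in chow replicate 3 and 0 counts in the other chow libraries (edgeR adjusted p = 0.37). Tspan7 reached 22.1 and 40.7 CPM in KD replicates 3 and 4 and at most 4.26 CPM elsewhere (adjusted p = 0.557). Of 15 tested lysosomal peptidases, 8 had a positive value and 3 an unadjusted p under 0.05, with Ctsw, a cathepsin of cytotoxic lymphocytes, at a log2 difference of -0.38 (adjusted p = 0.288) and Ctsc, which activates granzymes, at 0.24 (adjusted p = 0.448).

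**Figure D5:**
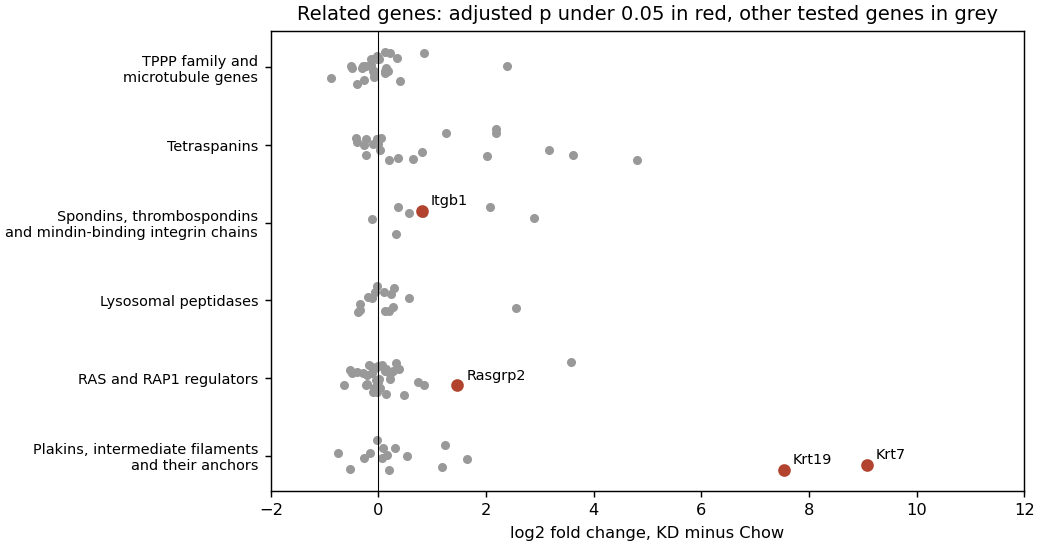
Log2 fold change (KD minus chow, horizontal axis) of each tested related gene, by list, with the 4 genes past the adjusted threshold in red and named; vertical scatter within a row only separates points. The fitted values of Krt19 and Krt7 rest on 3 and 0 chow counts, so their distance from 0 is not a measured fold, and 66 of the 123 genes have positive values.

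Genes beside the 7 on the chromosome did not pass. Of the 3 nearest tested genes on each side (42 genes), 0 were called by edgeR or DESeq2 in either direction, where 0.508% of all tested genes were called. Of the 42, 6 had an unadjusted p under 0.05 (8.64% of all tested genes), and 3 were higher in every KD sample (3.30% of all tested genes). A positive fold change was found for 25 of 42 neighbours (median 0.14) and for 6818 of all 13397 tested genes. The 6 with an unadjusted p under 0.05, all with positive values, were Gas6 beside Rasa3 (log2 fold change 2.34, edgeR adjusted p = 0.568), Nrbp2 near Plec (2.03, adjusted p = 0.521), Upf3a near Rasa3 (0.42, adjusted p = 0.450), Mta2 near Rom1 (0.23, adjusted p = 0.504), Ywhah beside Spon2 (0.22, adjusted p = 0.390) and Puf60 near Plec (0.19, adjusted p = 0.527). The 3 higher in every KD sample were Ywhah, Mta2 and Cdc16. Rom1 lies between close neighbours, with B3gat3 ending 154 bases from it on one side and Eml3 beginning 195 bases away on the other, on the opposite strand. Eml3, whose start faces that of Rom1, was at 80.6 ± 7.10 CPM in KD and 74.98 ± 4.01 CPM in chow (SD, n = 4 each; log2 fold change 0.10, SE 0.10, edgeR adjusted p = 0.876). B3gat3 differed by 0.13 on the log2 scale (adjusted p = 0.857). Zdhhc1 ends 896 bases from the start of Tppp3 and was at 3.84 ± 0.691 CPM in KD and 5.86 ± 2.68 CPM in chow (adjusted p = 0.804). Parp10, which overlaps the start of Plec, was at 46.5 ± 5.34 CPM in KD and 54.5 ± 4.44 CPM in chow (adjusted p = 0.682).

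The genes whose log2 CPM followed each of the 7 most closely over the 8 samples are named as a description, and the difference between the diets is part of each Pearson's r. Some of them are low genes near 0 in chow: Arhgef10l averaged 4.10 CPM in KD with 0 counts in chow, and Tmeff2 averaged 3.23 CPM in KD and 0.121 CPM in chow. For Tppp3 they were Klhl6 (r = 0.978), Acsbg1 (0.976) and Lgals3bp (0.974), and for Rom1 they were Racgap1 (0.990), Arhgef10l (0.987) and Ttc39c (0.981). Spon2 was closest to Npnt (0.985), Tmeff2 (0.972) and Fam129b (0.966), and Scpep1 to Fmod (0.986), Atp1b3 (0.985) and Tmeff2 (0.982). The closest to 1500009L16Rik were Zc3h12c (0.980), Cd48 (0.979) and Acot9 (0.972). Rasa3 was closest to Arhgef10l (0.991), Racgap1 (0.981) and Pepd (0.975). Arhgef10l and Racgap1 are named for both Rasa3 and Rom1, and nothing is read from this, since the diet difference is part of each r. With the diet means removed, Rom1 and Rasa3 themselves correlated at r = 0.446. Over all 21 pairs of the 7 genes such values ran from -0.888 to 0.914, with a median of -0.0385 and 9 positive. Plec had the weakest likenesses, to Dtx1 (0.961), Commd3 (0.950) and Rfx1 (0.940). Npnt, which encodes the matrix protein nephronectin, was at 80.1 CPM in KD and 17.9 CPM in chow on average, and Dtx1, which encodes a Notch pathway regulator, at 34.0 and 8.11 CPM.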

How the data were processed

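The authors deposited estimated counts per gene, not normalized, and FPKM values for the same samples. Per the submitters' processing notes the tools were BWA, TopHat2, RSEM and DESeq2 with mouse genome GRCm38, and neither versions nor roles are stated. Counts were not whole for 5310 to 5802 genes in each library, since reads shared by similar genes were divided. Counts were rounded, and genes were kept by edgeR's filterByExpr (minimum count 10, minimum total 15), which left 13397 of 47729. A spreadsheet had turned 27 symbols into dates, restored by identifier. Diets were compared with the quasi-likelihood F test of edgeR (TMM, robust, two-sided, Benjamini-Hochberg over all tested genes, threshold 0.05), with each standard error taken as the log2 fold change over the root of F. CPM uses TMM-scaled library sizes, and log2 CPM a prior count of 2. Mean transcript length was count divided by library total and FPKM, scaled by the sample's median over tested genes, and was taken as constant where it varied by under 0.5%. Versions were DESeq2 1.42.0, limma 3.58.1, edgeR 4.0.16 and R 4.3.3, and the fit was tested on simulated data. The floors describe counting error alone, because reads were not collapsed to molecules by identifiers. Positions are those of GENCODE M21, in which 47224 of the 47729 identifiers were found.

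The 7 genes and all gene lists were chosen with earlier results of these data known. Of each list of related genes the text names every gene called and the 2 others with the smallest p. It also names the neighbours that overlap a member, the 3 genes most like each member (Pearson's r, mean of at least 1 CPM, predicted genes left out) and, of the 2 genes just outside the rule, 1, since the other is not reported here. Neighbours other than those that overlap a gene were named after their values were seen. Alternatives were RLE or no composition factors, no count filter, DESeq2, limma on log2 of FPKM plus 1 or 0.1, a replicate block, a stromal covariate (the mean log2 CPM of the stromal and mesothelial markers) and leaving out each sample.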

Additional observations from a re-analysis of the deposited data

Results flagged for a closer look

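In 5 of the 54 groups of 4 samples examined, among the 7 genes, the 4 varying transcript lengths and the related genes named above, 1 sample stood far from the other 3 for its group's range, and chance alone gives about 5% of such groups. Scpep1 in chow replicate 1 was at 314 CPM, above the other chow samples. Rasa3 in chow replicate 4 was at 261 CPM, above the other chow samples. The transcript length of Spon2 in KD replicate 3 was 1784 bases, above the other KD samples. Upk1b was at 0.858 CPM in KD replicate 1, below the other KD samples, and at 1.01 CPM in chow replicate 3, where the other chow libraries had 0 counts. KD replicate 1 is also the KD library with the least stromal and mesothelial marker RNA.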

How the results depend on the processing

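The fold changes of the 7 genes kept their sign in all 16 alternatives each, and 108 values moved by less than 1 SD of the samples. The other 4 were Tppp3 at 3.53 and Plec at 0.93 with the stromal covariate, and Plec at 0.89 and 0.91 with limma on log2 of FPKM plus 1 and plus 0.1. Without single samples Tppp3 ran from 2.73 to 3.21, Spon2 from 2.48 to 3.14 and Plec from 0.44 to 0.65. Over all genes edgeR called 44 higher and 24 lower. DESeq2 called 160 and 132, the replicate block 11 and 1, the stromal covariate 6 and 1, and limma on FPKM called 68 (plus 1) or 73 (plus 0.1) higher. Without single samples 12 to 32 genes were higher and 0 to 13 lower. Of the related genes 4 were called, against 1 with the replicate block, 1 with the stromal covariate and 0 to 2 without single samples; the cause was not tested. With the block Rasgrp2 was called (adjusted p = 0.0461), and Itgb1 (0.0962), Krt19 (0.0713) and Krt7 (0.306) were not. For neighbours 0 were called in every alternative. For transcript lengths 0 were called as well, but there a gene alone could not pass in any alternative. The smallest possible p of the exact test was too large for that, and with the replicate block a sign-flip test could reach no less than p = 0.125. The length ratio of Plec was 0.764 to 0.816 without single samples. The replicate numbers are shared by the diets, but deviations of same-numbered samples correlated at -0.114, 0.0405, -0.106 and 0.0536, and no sample correlated best with its own number, so the numbers were not taken as pairs.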
